A study of Homo sapiens with 2 samples.

Results

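The metallothioneins, their transcription factor MTF1 and the SLC30A and SLC39A metal transporters were examined in Huh-7, a long-established cell line from a human hepatocellular carcinoma. Members were chosen by gene symbol, with earlier results of these data known. The array's annotation had to name the gene as a coding metallothionein (MT1, MT2A, MT3 or MT4) or as MTF1. Genes named SLC30A or SLC39A followed by a number were also taken. The rule found 35 genes of the 18417 that had a probe set of their own, namely 10 metallothioneins, MTF1, 10 SLC30A and 14 SLC39A genes. MT1A, which the rule also covers, had no probe set of its own in that annotation and was not analysed here. The series held 1 array of cells transfected with DEPDC1 siRNA and 1 array of cells transfected with NC, the control, both collected 72 h after transfection. The 2 cultures shared the line, the transfection and the time. The siRNA sequence, the number of siRNAs and the nature of NC are not given in the sources used here. With 1 array per group no test could be run, no value has a replicate error, and every difference below compares 2 cultures.

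Metallothioneins are small cysteine-rich proteins that bind zinc, copper and cadmium in the cytosol. In liver cells the MT1 and MT2A genes are induced by zinc through MTF1, a zinc-sensing transcription factor that binds metal response elements in their promoters, and also by glucocorticoids and interleukin-6. SLC30A proteins (ZnT) carry zinc out of the cytosol, either across the plasma membrane or into organelles, and SLC39A proteins (ZIP) carry it into the cytosol. SLC30A10 differs in that it exports manganese, and SLC39A14 and SLC39A8 take up manganese and iron as well as zinc.

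Values are the deposited log2 expression, and differences are given as siRNA minus NC, so that a difference of 1 is a fold of 2. A gene was called detected if it had at least 4.66 on at least 1 array. This threshold, the pooled median of the probe sets, is a convention, since no background was measured. By this rule 11352 genes were detected, 29 of the 35 members among them, and all 29 lay above the threshold on both arrays. Over all detected genes the median difference was 0.00, and the central 95% of differences ran from -0.70 to 0.91. Where a gene had several detected probe sets with different values (392 genes), their differences spanned a median of 0.12 and a 90th percentile of 0.44, which gauges the measurement within these arrays and not the spread between cultures. DEPDC1, the target, differed by -2.67 (7.82 against 5.15).

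The MT1 genes and MT2A were higher in the siRNA array, and most transporters differed little. Of the 29 detected members, 4 were at least 2-fold higher, all of them MT1 genes, against 1.94% of all detected genes. SLC30A10 was the 1 member at least 2-fold lower, against 0.863% of all detected genes. The other 24 lay between. The 7 detected MT1 and MT2A genes had a median difference of 1.10, and each of the 7 was higher in the siRNA array. The 19 detected transporters had a median of -0.03, with 9 higher and 10 lower.

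**Figure D1:**
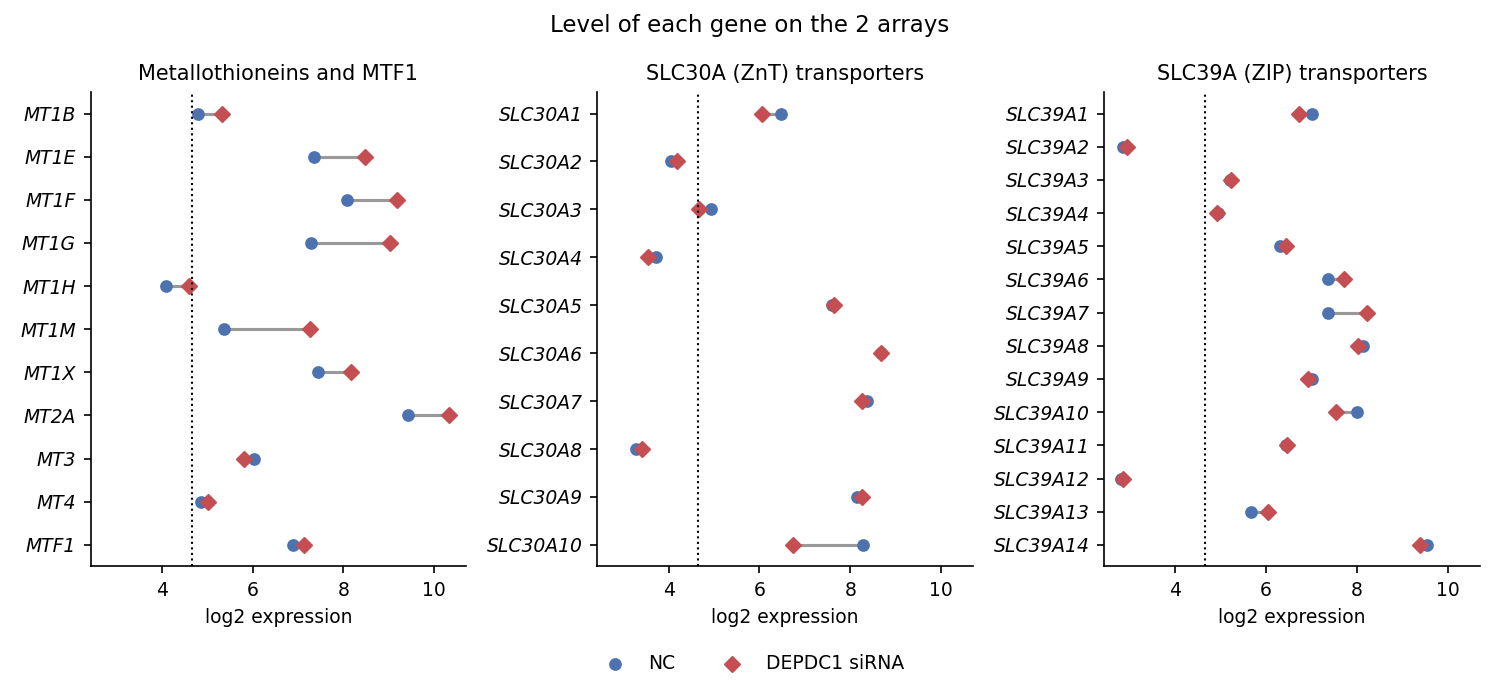
Deposited log2 expression of each of the 35 genes on the NC array (circles) and the DEPDC1 siRNA array (diamonds), 1 array per group, in panels for metallothioneins with MTF1, SLC30A and SLC39A genes. The dotted line is the detection threshold of 4.66. The wide gaps are those of MT1M (5.37 and 7.27), MT1G (7.28 and 9.03) and SLC30A10 (8.29 and 6.74).

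The log2 expression of MT1M (probe set 7995787) was 5.37 with NC and 7.27 with the siRNA, 3.73-fold higher. It ranked 38 from the top among the 11352 detected genes. MT1G (probe set 8001531) had 7.28 and 9.03, a 3.36-fold difference, at rank 48. Both thus stood well past the central 95% of detected genes. MT1E had 7.34 with NC and 8.48 with the siRNA, 2.20-fold higher. MT1F had 8.07 and 9.18, 2.15-fold higher. These 4 are isoforms of the zinc-inducible MT1 group.

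The remaining members of the inducible group were higher by less than 2-fold. MT2A, usually an abundant metallothionein of liver cells, was read from 3 probe sets. The probe set with the highest mean (8095362) had 9.42 and 10.33, a difference of 0.91. The others gave 1.03 (probe set 7995783) and 0.86 (probe set 8095376), so MT2A lay on either side of the 2-fold threshold depending on the probe set used. All 3 were higher in the siRNA array. Probe set 7995783 is numbered among those of the other metallothionein genes, 7995772 (MT4) to 7995838 (MT1X), with MT1G at 8001531. The numbers 8095362 and 8095376 lie apart from them. Which place in the genome each of the 3 reads was not checked. MT1X had 7.45 and 8.17, a difference of 0.72. MT1B, dimmer, had 4.79 and 5.33, a difference of 0.54. MT1H was under the detection threshold on both arrays, with 4.10 and 4.59.

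MT3 and MT4 are metallothioneins of other tissues, brain and stratified epithelium, and did not share the difference. MT3 had 6.03 with NC and 5.82 with the siRNA, a difference of -0.21. MT4 had 4.86 and 5.01, a difference of 0.15. Each had 1 probe set. Both differences were within 0.44, the 90th percentile of the spans in genes with several probe sets.

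**Figure D2:**
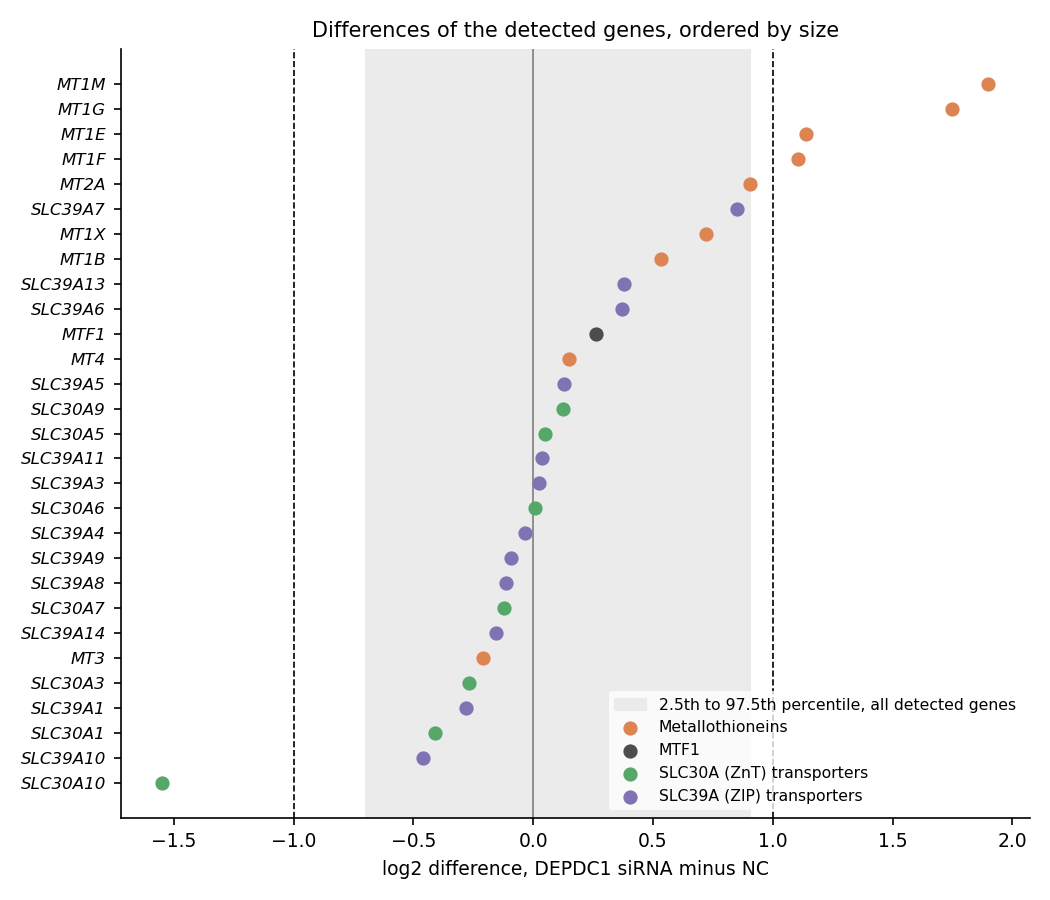
Log2 difference (DEPDC1 siRNA minus NC) of the 29 detected genes, ordered by size and coloured by family, 1 array per group. Dashed lines mark 2-fold and the shaded band the central 95% of all 11352 detected genes, from -0.70 to 0.91. MT1M, MT1G, MT1E and MT1F lie past the upper dashed line and SLC30A10 past the lower.

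The metallothionein genes lie in a single cluster on chromosome 16, which allowed them to be read against their neighbours. In the RefSeq gene order the cluster runs from MT4 through MT3, MT2A, MT1E, MT1M, MT1B, MT1F, MT1G and MT1H to MT1X, with pseudogenes between them. The 5 nearest measured genes on each side included 6 detected genes, with differences from -0.12 to 0.41 and a median of 0.13. OGFOD1, an oxygenase gene next but 1 to MT4, differed by 0.41, and BBS2, a ciliary gene beside MT4, by 0.09. NUP93, a nuclear pore gene beside MT1X, differed by 0.26. None of these 6 reached 2-fold, which for so few genes is near the shares of all detected genes (1.94% higher, 0.863% lower). The 13 detected genes and pseudogenes of the cluster had a median of 0.91, from -0.21 (MT3) to 1.90 (MT1M), and 5 of them, counting the probe set shared by MT1L and NUTF2, were at least 2-fold higher. MT2A was entered here with probe set 8095362, whose difference (0.91) is itself that median and whose place in the genome was not checked. Its probe set 7995783 gave 1.03, past 2-fold. MT3, MT4 and MT1IP lay within the range of the neighbours or below it.

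Of the 4 measured pseudogenes of the cluster, 3 had a higher value in the siRNA array and 1 did not. MT1JP had 4.52 and 5.49, at least 1.77-fold higher, since its NC value lay under the threshold. MT1DP had 7.17 with NC and 7.91 with the siRNA, a difference of 0.74. A probe set annotated to both MT1L and the unrelated gene NUTF2 had 7.53 and 8.56, a difference of 1.03. MT1IP, between MT1H and MT1X, had 5.07 and 5.03, a difference of -0.05. Outside the cluster, MT1HL1 had 5.02 and 5.77, and MT1P3 had 7.21 and 8.01, differences of 0.75 and 0.80. Metallothionein genes and pseudogenes are close in sequence, and their probe sets can read each other's transcripts. The values above are therefore not independent readings, and how many of the genes truly differed cannot be told from them.

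**Figure D3:**
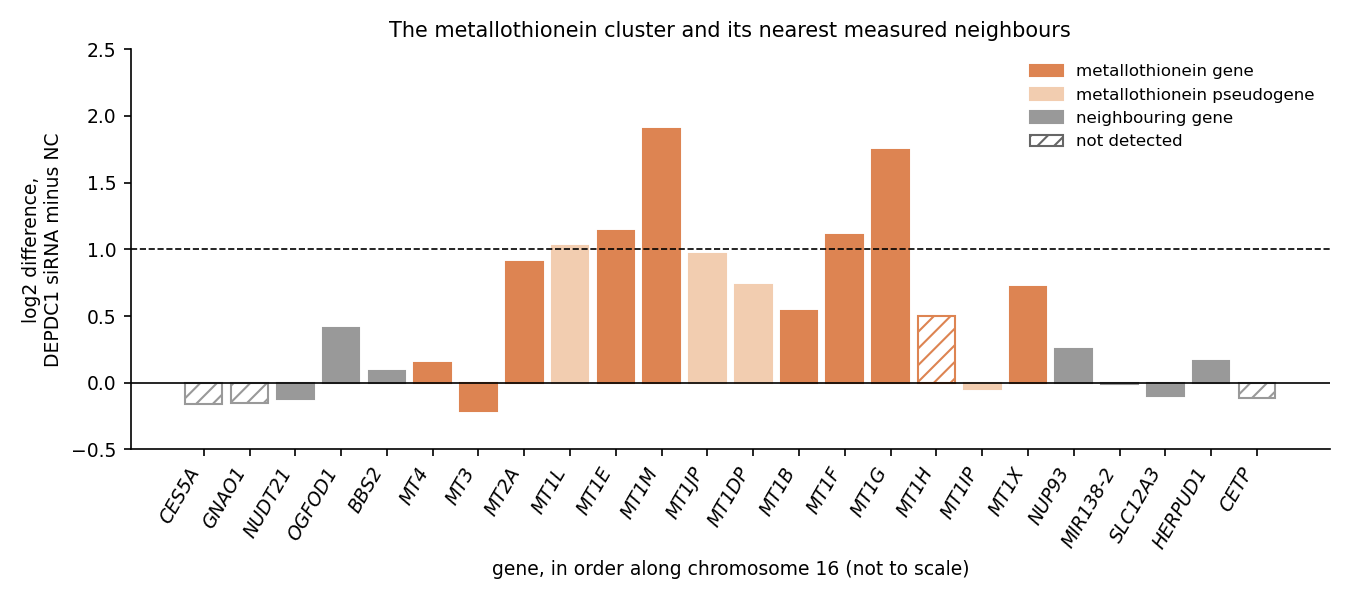
Log2 difference (DEPDC1 siRNA minus NC) of the metallothionein genes and pseudogenes and of their 5 nearest measured genes on each side, in RefSeq order along chromosome 16 and not to scale, 1 array per group. Hatched bars are genes under the detection threshold on both arrays, the dashed line marks 2-fold higher, and the MT1L bar is a probe set also annotated to NUTF2. The MT2A bar is probe set 8095362, whose place in the genome was not checked. The detected cluster genes run from -0.21 (MT3) to 1.90 (MT1M) and the detected neighbours from -0.12 to 0.41.

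The bases upstream of the members' start sites were searched for the core of the metal response element, because it is the letter pattern MTF1 binds. RefSeq promoters (GRCh38.p14) were found for 27 of the 35 members, including 5 metallothioneins, MT1B, MT1H, MT1X, MT2A and MT4. The promoters of MT1M, MT1G, MT1E and MT1F, the 4 members at least 2-fold higher, were not analysed here, so the counts below cover none of them. The 250 bases before each start are shown for 3 of the metallothioneins that were higher and for SLC30A1 and SLC30A10, the SLC30A genes with the largest decreases, 5′ to 3′ on the gene's strand. Capitals mark each match to TGCACNC or TGCGCNC on either strand.
MT2A (chr16:56608334-56608583, + strand): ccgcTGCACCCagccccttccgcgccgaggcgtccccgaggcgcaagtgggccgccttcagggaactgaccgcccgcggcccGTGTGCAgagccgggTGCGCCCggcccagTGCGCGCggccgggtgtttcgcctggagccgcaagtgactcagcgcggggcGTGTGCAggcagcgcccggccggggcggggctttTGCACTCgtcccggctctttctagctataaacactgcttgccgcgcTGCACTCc
MT1X (chr16:56682220-56682469, + strand): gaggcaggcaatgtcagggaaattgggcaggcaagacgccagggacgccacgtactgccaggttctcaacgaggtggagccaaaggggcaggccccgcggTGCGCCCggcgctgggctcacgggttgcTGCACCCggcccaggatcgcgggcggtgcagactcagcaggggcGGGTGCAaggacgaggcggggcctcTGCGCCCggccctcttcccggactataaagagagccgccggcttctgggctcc
MT1B (chr16:56651636-56651885, + strand): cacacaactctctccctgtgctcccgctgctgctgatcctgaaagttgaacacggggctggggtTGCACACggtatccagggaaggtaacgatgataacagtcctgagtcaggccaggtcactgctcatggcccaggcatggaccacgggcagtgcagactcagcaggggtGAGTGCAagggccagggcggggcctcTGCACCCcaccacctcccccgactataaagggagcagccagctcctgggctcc
SLC30A1 (chr1:211579162-211579411, - strand): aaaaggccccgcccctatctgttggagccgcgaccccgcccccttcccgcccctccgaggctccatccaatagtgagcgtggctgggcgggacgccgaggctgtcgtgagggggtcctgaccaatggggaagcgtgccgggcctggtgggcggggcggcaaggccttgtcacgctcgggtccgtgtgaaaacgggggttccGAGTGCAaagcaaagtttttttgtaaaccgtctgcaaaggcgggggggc
SLC30A10 (chr1:219928558-219928807, - strand): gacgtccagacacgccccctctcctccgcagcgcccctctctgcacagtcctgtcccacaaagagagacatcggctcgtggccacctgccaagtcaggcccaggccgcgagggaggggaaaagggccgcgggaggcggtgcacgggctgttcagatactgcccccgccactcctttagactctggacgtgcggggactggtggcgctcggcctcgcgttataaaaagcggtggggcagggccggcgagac
SLC30A10, other start (chr1:219959099-219959348, - strand): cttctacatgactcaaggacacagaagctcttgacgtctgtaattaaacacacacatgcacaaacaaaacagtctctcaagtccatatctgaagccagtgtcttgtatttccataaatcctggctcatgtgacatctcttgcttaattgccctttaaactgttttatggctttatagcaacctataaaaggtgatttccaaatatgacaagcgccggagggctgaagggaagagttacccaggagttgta

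MT2A had 7 non-overlapping matches, MT1X had 4 and MT1B had 3. SLC30A1 had 1, ending 43 bases before the start, and neither start of SLC30A10 had any. In all 3 metallothioneins shown a TATAAA box began 29 or 30 bases before the start. Both starts of SLC30A10 held TATAAA too, 32 and 68 bases before the start, and MT1H held none. Among all 35116 RefSeq promoters, cut to the same length and not matched for base composition, 24.8% held at least 1 match and 1.05% at least 3. All 5 metallothionein promoters held at least 3, with a highest count of 8 in MT1H. Of the 11 SLC30A starts (9 genes), 6 held at least 1 match and 1, that of SLC30A2, held 3. Of the 19 SLC39A starts (12 genes), 5 held 1 match and none more. Beside these counts, MT2A with 7 matches differed by 0.91 and MT1X with 4 by 0.72. MT1B and MT4, with 3 each, differed by 0.54 and 0.15. MT1H, with the highest count, was under the detection threshold on both arrays. These genes are few, and whether the number of matches goes with the difference was not tested. A match describes letters in this window and is not a measured binding site.

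MTF1 itself had 6.88 with NC and 7.14 with the siRNA, a difference of 0.26. This was within 0.44, the 90th percentile of the spans in genes with several probe sets. SLC30A1, the zinc exporter of the plasma membrane, is known as another MTF1 target. It had 6.47 with NC and 6.05 with the siRNA, a difference of -0.41 or 1.33-fold lower. That difference, too, was within 0.44, a span taken from other genes, since MTF1 and SLC30A1 had 1 probe set each. SLC30A1 still ranked 904 from the bottom among the 11352 detected genes.

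The log2 expression of SLC30A10 (probe set 7924342) was 8.29 with NC and 6.74 with the siRNA, 2.93-fold lower. It ranked 22 from the bottom among detected genes. SLC30A10 removes manganese from hepatocytes, and its loss leads to manganese accumulation in liver and brain. The importers that supply hepatocytes with manganese differed little beside it. SLC39A14 had 9.54 and 9.39, a difference of -0.16, and SLC39A8 had 8.14 and 8.02, a difference of -0.11.

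The other SLC30A genes that were detected serve organelles. SLC30A5 and SLC30A6, which form a heterodimer that loads zinc into the early secretory pathway, differed by 0.05 and 0.01. SLC30A7, which acts in the same compartment, differed by -0.12, and SLC30A9, a mitochondrial zinc transporter, by 0.12. SLC30A3, best known from synaptic vesicles, had 4.94 and 4.67, next to the threshold, and differed by -0.27. SLC30A2, SLC30A4 and SLC30A8, the last the zinc transporter of insulin granules, were under the threshold on both arrays, with values from 3.28 to 4.19. Apart from SLC30A10, no SLC30A gene differed by more than SLC30A1. The median of the 7 detected SLC30A genes was -0.12, and with a detection filter at the 75th percentile of all probe sets it was 0.0078.

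Among the 12 detected SLC39A genes, 6 were higher and 6 lower, with a median of -0.0043. None reached 2-fold, which in 12 genes is near the shares of all detected genes (1.94% higher, 0.863% lower). SLC39A7, which releases zinc from the endoplasmic reticulum, had 7.37 with NC and 8.22 with the siRNA, 1.80-fold higher. It was the transporter with the largest positive difference (0.85), inside the central 95% of detected genes. Its 3 probe sets held identical values and count as 1 reading. SLC39A13, a zinc transporter of the early secretory pathway, had 5.66 and 6.04, a difference of 0.38, while SLC39A9, of the Golgi, differed by -0.09.

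SLC39A6 and SLC39A10, plasma membrane importers that can form a heteromer, differed in opposite directions. SLC39A6 had 7.35 and 7.72, a difference of 0.37. SLC39A10 had 7.99 and 7.53, a difference of -0.46, slightly over the 0.44 gauge. SLC39A1, a widely expressed importer, had 7.01 and 6.73, a difference of -0.28. SLC39A5 differed by 0.13, SLC39A11 by 0.04, SLC39A3 by 0.02 and SLC39A4, the importer of the intestine, by -0.03. SLC39A2 and SLC39A12 were under the threshold on both arrays, with values from 2.81 to 2.94. When each array was centred on its detected genes, SLC30A5, SLC30A6, SLC39A3 and SLC39A11 changed sign, so these have no settled direction.

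Genes that handle other metals were compared with the metallothioneins. Of 21 detected iron-handling genes, 1 was at least 2-fold lower and none at least 2-fold higher, with a median of -0.21. TF, the iron carrier transferrin, had 10.99 with NC and 9.90 with the siRNA, 2.12-fold lower. HPX, the heme carrier hemopexin, had 6.02 and 6.83, a difference of 0.81. The 12 detected copper-handling genes had a median of 0.06 and none reached 2-fold. SLC31A1, the copper importer, differed by -0.44 and CCS, the copper chaperone of superoxide dismutase, by 0.27. Of 7 other detected genes of zinc, manganese or cadmium transport none reached 2-fold (median 0.02). TRPM7, a divalent cation channel and kinase, differed by -0.57, and ATP13A2, a lysosomal ATPase, by -0.25.

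Genes of the other stimuli known to induce metallothioneins were read in the same way. The shares of all detected genes past 2-fold were again 1.94% higher and 0.863% lower. With so few genes per list, a count of none is near these shares. Of 16 detected genes of the metal and oxidant stress response, 1 was at least 2-fold higher, 1 at least 2-fold lower, and 12 had a lower value, with a median of -0.11. SLC7A11, the cystine transporter, had 7.11 and 8.21 (2.15-fold higher). GCLM, a subunit of the glutathione-synthesizing ligase, had 8.02 and 6.99 (2.03-fold lower). Of 8 detected glucocorticoid-induced genes none reached 2-fold, with a median of -0.11. SGK1, a kinase, differed by -0.99, and TSC22D3, the leucine zipper protein GILZ, by 0.37. Of 10 detected genes of the interleukin-6 and STAT3 response none reached 2-fold, with a median of -0.25. FGG, a fibrinogen chain, differed by -0.78 and STAT3, the transcription factor, by 0.80. Over all 11 measured genes of the glucocorticoid list, without the detection filter, the median was 0.04. That list also counts the receptor gene NR3C1 (0.29). The interleukin-6 list likewise counts the receptor genes IL6R (0.29) and IL6ST (-0.27). The members of each list went both ways, the lists are small, and whether any of these stimuli had a part in the metallothionein values was not tested.

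**Figure D4:**
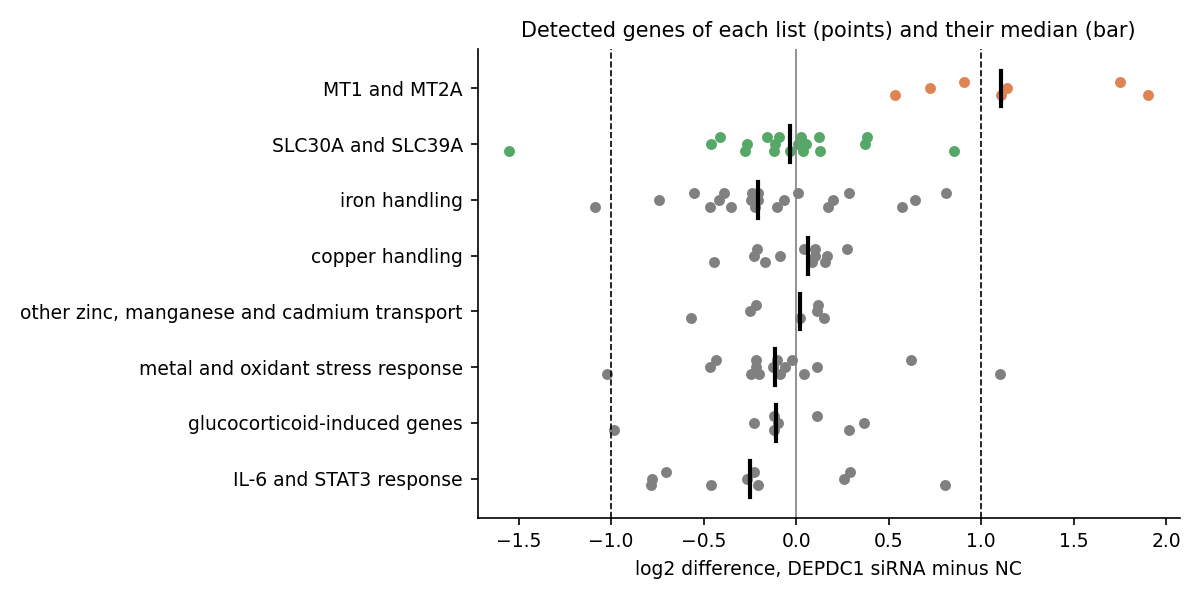
Log2 difference (DEPDC1 siRNA minus NC) of the detected genes of each list, 1 point per gene with the list's median as a bar, 1 array per group. Dashed lines mark 2-fold. The bar of the MT1 and MT2A genes stands at 1.10, those of the other lists between -0.25 and 0.06.

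Markers of cell types were read beside these results, and beside the shares of all detected genes past 2-fold (1.94% higher, 0.863% lower). The hepatocyte markers were all detected (9 of 9 measured, of 10 listed), where 11352 of all 18417 genes were. These 9 went with the label of a liver-derived line. Not every liver product was detected, since 7 of 17 measured genes of the interleukin-6 list, several of them liver products, were not. Of the 9 hepatocyte markers, SERPINA1, APOB and TF were at least 2-fold lower and TTR at least 2-fold higher in the siRNA array. The summed level of the 9 (antilog of the log2 values) was 11184 with NC and 8504 with the siRNA. Of the 8 fibroblast and stellate cell markers 4 were detected. LUM was 4.95-fold and COL1A2 2.10-fold higher, while COL1A1 and COL3A1 differed by 0.06 and -0.04. The summed level of all 8 was 376 with NC and 1208 with the siRNA, and without LUM that of the other 7 was 176 and 220. DCN, ACTA2, LRAT and PDGFRB lay under the threshold on both arrays. Of the immune markers CD14 and LYZ were detected among 6, LYZ being 2.30-fold higher, while PTPRC, CD163, CD3E and CD68 were under the threshold, and the summed levels were 190 and 249. Of the 5 cholangiocyte markers EPCAM, KRT19 and SOX9 were detected, none at least 2-fold different, and the summed levels were 1253 and 1447. No endothelial marker of 5 was detected, with summed levels of 61.5 and 58.6. In such bulk RNA, a change in the share of cells and a change in RNA per cell cannot be told apart, and the part of these markers in the metallothionein values was not tested.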

How the data were processed

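Total RNA of 2 Huh-7 cultures, 1 per group, was labelled with biotin and hybridised to 1 Affymetrix array each, per the labels' protocols. The submitters' processing notes name Affymetrix Expression Console and version 3.0 of Transcriptome Analysis Console but give no role. No source used here says how background was corrected or the arrays were normalized. The deposited values ranged between 1.39 and 12.7 (medians 4.67 for NC, 4.64 for siRNA) and were taken as log2 expression. The sorted columns differed by at most 0.0997, so the values were used unscaled.

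GEO's platform annotation gave 1 gene for 19460 of 33297 probe sets, several for 1754 and listed none for 12083. Symbols were updated by Entrez identifier against RefSeq (19429 matched). The probe set with the highest mean was used per gene. Where in the genome each probe set lies was not checked, for the members or for the list and marker genes. Only promoter coordinates are printed (GRCh38.p14), since no source used here names the build of the array annotation.

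With 1 array per group, differences, counts at 2-fold and medians are given without any test. The counting code was checked on simulated data with large planted differences. This does not measure how often 2-fold differences arise between single cultures. Named were DEPDC1, every member and, per list, the detected genes past 2-fold and the 2 with the largest absolute difference. The cluster's neighbours, pseudogenes and marker genes under the threshold were named after their values were seen, as were the promoters shown. Members and lists were chosen with earlier results of these data known. Alternatives covered the scaling, the probe set per gene and the filter. Python 3.11.15 and pandas 2.3.3 were used. The number of arrays limits the precision.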

Additional observations from a re-analysis of the deposited data

How the results depend on the processing

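The counts of members past 2-fold and the differences of MT1M, MT1G and SLC30A10 kept their direction and their side of 2-fold under quantile normalization, centring, the mean over probe sets, no filter, a filter at the 75th percentile and values raised to the threshold. The differences ran from 1.84 to 1.90 for MT1M, from 1.69 to 1.75 for MT1G and from -1.61 to -1.55 for SLC30A10. The median of the metallothioneins was 0.91 over 9 detected genes and ran from 0.81 to 1.12. With MT2A read from probe set 7995783, an alternative chosen after seeing the data, 5 instead of 4 members were at least 2-fold higher. The median of the metallothioneins was then 1.03. The medians of the transporter families lay near 0 and changed sign, from -0.18 to 0.0078 for SLC30A and from -0.11 to 0.03 for SLC39A. Centring moved the median of all detected genes by -0.06. Probe sets of several metallothioneins together could not be run because the annotation listed none. Background was not measured, so whether it compresses the differences of dim genes such as MT1B was not tested. No paired analysis was possible because each group had 1 array and no test was run.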
